A study of Mus musculus with 16 samples.

Results

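The genes described here code for subunits of the mitochondrial respiratory chain and ATP synthase. They were taken by symbol from a table of 23284 mouse genes (Nduf with a, b, c, s or v and a digit, Uqcr, Cox4 to Cox8, Sdha to Sdhd, and Atp5), leaving out Ndufa4l2 and assembly factors. Of 84 matching genes, 83 reached 1 FPKM (fragments scaled by transcript length and sequencing depth) in at least 2 of 16 libraries. They comprised 36 genes of complex I, 4 of complex II, 8 of complex III, 18 of complex IV and 17 of complex V, the ATP synthase. The gene that did not pass was Cox8b, the heart and muscle form of subunit 8, whose highest value was 2.54 FPKM, in the KIX V EB library. For 3 of the 83, the symbol matched but the gene is not a subunit: Cox4nb, now called Emc8, a part of an endoplasmic reticulum membrane complex, and Atp5s and Atp5sl, now called Dmac2l and Dmac2. Without these 3, the count for EBs against iPSCs was 9 higher and 61 lower of 80. The other counts, also those by complex, include them unless stated.

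The 16 polyA libraries came from mouse induced pluripotent stem cells (iPSCs, 12 libraries) and from embryoid bodies (EBs, 4 libraries), the aggregates in which such cells differentiate, formed here as hanging drops. Every library was labelled with the genotype ColA1_miR203; Rosa26rtTA, a knock-in that expresses the microRNA miR-203 under doxycycline, and with doxycycline for 5 to 7 days. The iPSCs were made from embryonic fibroblasts of these mice and were grown on feeder cells, whose RNA can enter the libraries. Each title carries a prefix (KIX or KI), then D or V, then 1, 4, 10 or EB, and the labels define none of these codes, so no treatment or day was assigned. Each of the 8 groups (KIX 1, KI 1, KIX 4, KI 4, KIX 10, KI 10, KIX EB and KI EB) held 2 libraries, D and V. The labels do not describe D and V as independent cultures. The p-values therefore reflect only how far these libraries differ, and that spread may be technical.

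The respiratory chain passes electrons from NADH through complex I, or from succinate through complex II, to ubiquinone, and then through complex III and cytochrome c to complex IV, which reduces oxygen. Complexes I, III and IV pump protons across the inner mitochondrial membrane, and the ATP synthase uses that gradient to make ATP. Pluripotent stem cells are known to rely heavily on glycolysis, and differentiation into muscle is known to come with tissue-specific forms of complex IV subunits. None of the subunit genes of the mitochondrial DNA was among the genes of the table, so the values concern nuclear-encoded subunits alone.

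Summed over genes, libraries held 612598 to 724350 FPKM, and 12117 to 12501 genes reached 1 FPKM. The lowest values gave relative depths that differed at most 1.22-fold between libraries. That estimate used only values close to each gene's lowest, so it could not have shown large differences in depth. Of the pluripotency markers, 5 of 5 fell in EBs, among them Pou5f1 (log2 change -1.63), and 6 of 6 cardiac muscle and 6 of 6 endoderm markers rose, among them Actc1 (5.13). The fibroblast markers fell in EBs (10 of 10), their summed level being 24.1 to 488.8 FPKM in EBs and 1143 to 2566 FPKM in iPSCs. In bulk RNA, fewer cells of a type and less RNA per cell cannot be told apart. The induced microRNA gene, Mir203, stood at 1868 and 1969 FPKM in the KIX D and V libraries of number 1 and at 2254 and 1728 FPKM in those of number 4, and was listed at 0 in all 4 KI libraries of those numbers. It was listed at 0 in all libraries of number 10. In EBs it was at 212.4 FPKM in KIX D and 90.1 FPKM in KI V and listed at 0 in the other two.

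The KI D library of number 4 stood apart from the other iPSC libraries. It held the highest iPSC level of 68 of the 83 members. Within KI at number 4, 81 members were higher in D than in V, with a median difference of 0.24 in log2(FPKM + 1). The same difference was 0.28 over cytosolic ribosomal protein genes, 0.15 over mitochondrial ribosomal protein genes and -0.01 over all genes tested. Counts of members that rest on number 4 are therefore given with and without this library, while changes of single genes include it. What its high values come from was not tested.

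Most members were abundant transcripts. Their mean over the 16 libraries had a median of 172 FPKM, and 55 of 83 exceeded 100 FPKM. The highest was Atp5b, the catalytic beta subunit of ATP synthase, at 1063 FPKM, followed by Cox4i1, the widely expressed subunit 4 of complex IV, at 735 FPKM. The lowest was Cox8c, a subunit 8 form known from testis, at 0.894 FPKM. In complex I the range ran from Ndufs5 (11.9 FPKM) to Ndufa7 (412.1 FPKM), both accessory subunits. In complex II it ran from Sdhc (83.04 FPKM) to Sdhd (144.3 FPKM), which together anchor the enzyme in the membrane. In complex III it ran from the core protein gene Uqcrc2 (93.7 FPKM) to Uqcrq (451.9 FPKM), a small subunit. In the gene models (GENCODE vM21, GRCm38), 81 of 83 matched a gene. Those to which the results return include Ndufa1 at chrX:37187588-37191163 (minus strand), Sdhd at chr9:50596357-50603812 (minus), Uqcrc1 at chr9:108936633-108949623 (plus), Cox6a2 at chr7:128205435-128206387 (minus), Cox7b2 at chr5:71442824-71548205 (minus) and Atp5g1 at chr11:96068852-96075670 (minus), all protein-coding. Of all members, 78 were at 1 FPKM or more in every library. Ndufs5 was erratic: in KI at number 1 it was at 34.4 FPKM in D and 0.0285 FPKM in V, and in KIX at number 10 at 45.4 FPKM in D and 10.4 FPKM in V. It passed the test in no comparison and is left out of the plots of complex I levels and of KIX minus KI.

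**Figure D1:**
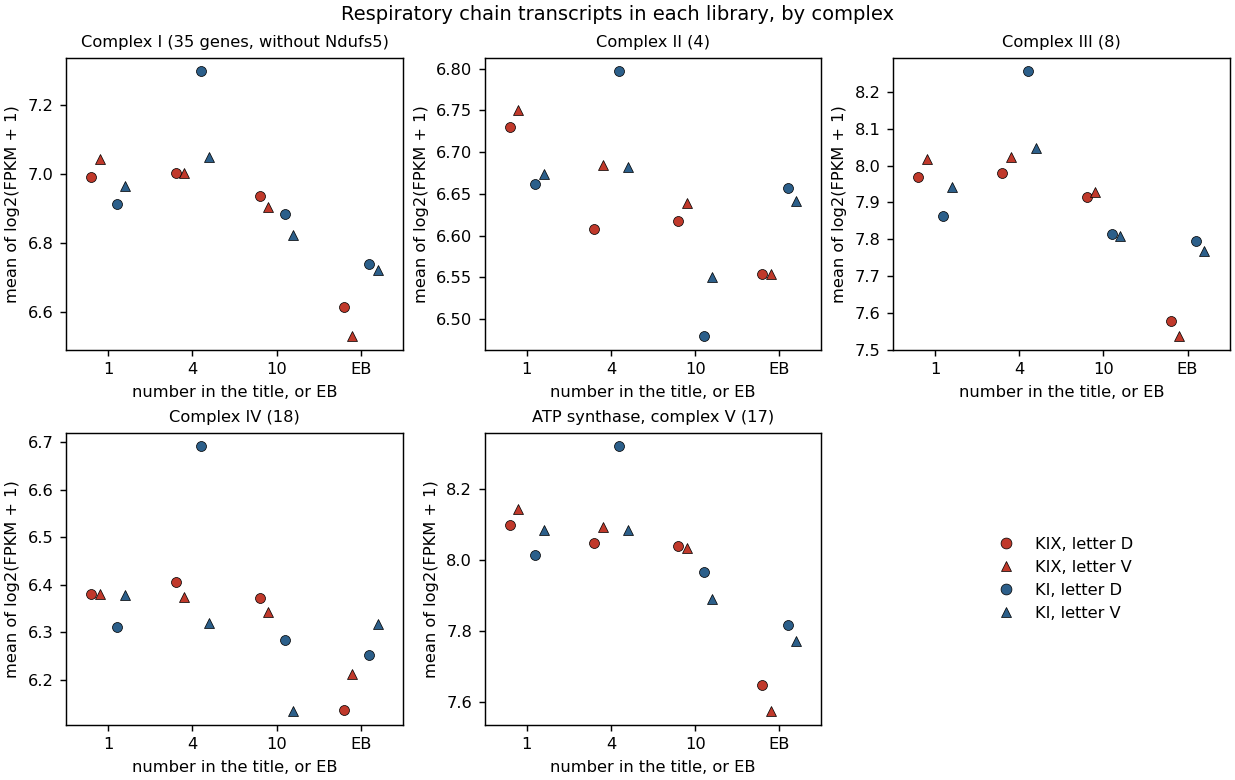
Mean of log2(FPKM + 1) over the members of each complex (vertical axis, a different range in each panel) in every library, by the number in the title or EB (horizontal axis). Red symbols are KIX and blue symbols KI, circles letter D and triangles letter V. The KI D library of number 4 is the highest point in all 5 panels, and in complexes I, III and V every EB library lies below every iPSC library.

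Embryoid bodies had less respiratory chain RNA than iPSCs, and 5 of the 9 members that rose were in complex IV. Members took 2.38% and 2.47% of all FPKM in the KIX V and KIX D EB libraries and 2.63% in both KI EB libraries, against 2.78% to 3.44% in the 12 iPSC libraries (median 3.01%). The groups did not overlap. In limma (adjusted p under 0.05), 63 members fell and 9 rose, where 42.2% of all 13895 genes tested fell and 44.4% rose (86.6% in either direction). The median change of the members was -0.28 in log2(FPKM + 1), beside 0.02 over all genes tested. These counts include Cox6a2, Cox7b2 and Cox8c, which reached 1 FPKM in at least 2 libraries only through the group where they are high, so that their difference is in part fixed by the filter. For 36 of 83 members every EB library was below every iPSC library, and for 4 every EB library was above. Over all 13895 genes tested, these counts were 3824 below and 4305 above. Without the KI D library of number 4, 62 fell and 10 rose. The size of the shift depended on scaling. Centring each library on its median gene moved the median of all genes to -0.17 and that of the members to -0.47, with 6 higher and 72 lower. Members minus all genes is -0.30 under both, since centring shifts all genes of a library alike. After quantile normalization this difference was -0.09, with 14 higher and 47 lower. The fall of the fibroblast and pluripotency markers in EBs accompanied these changes, and its part in them was not tested.

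**Figure D2:**
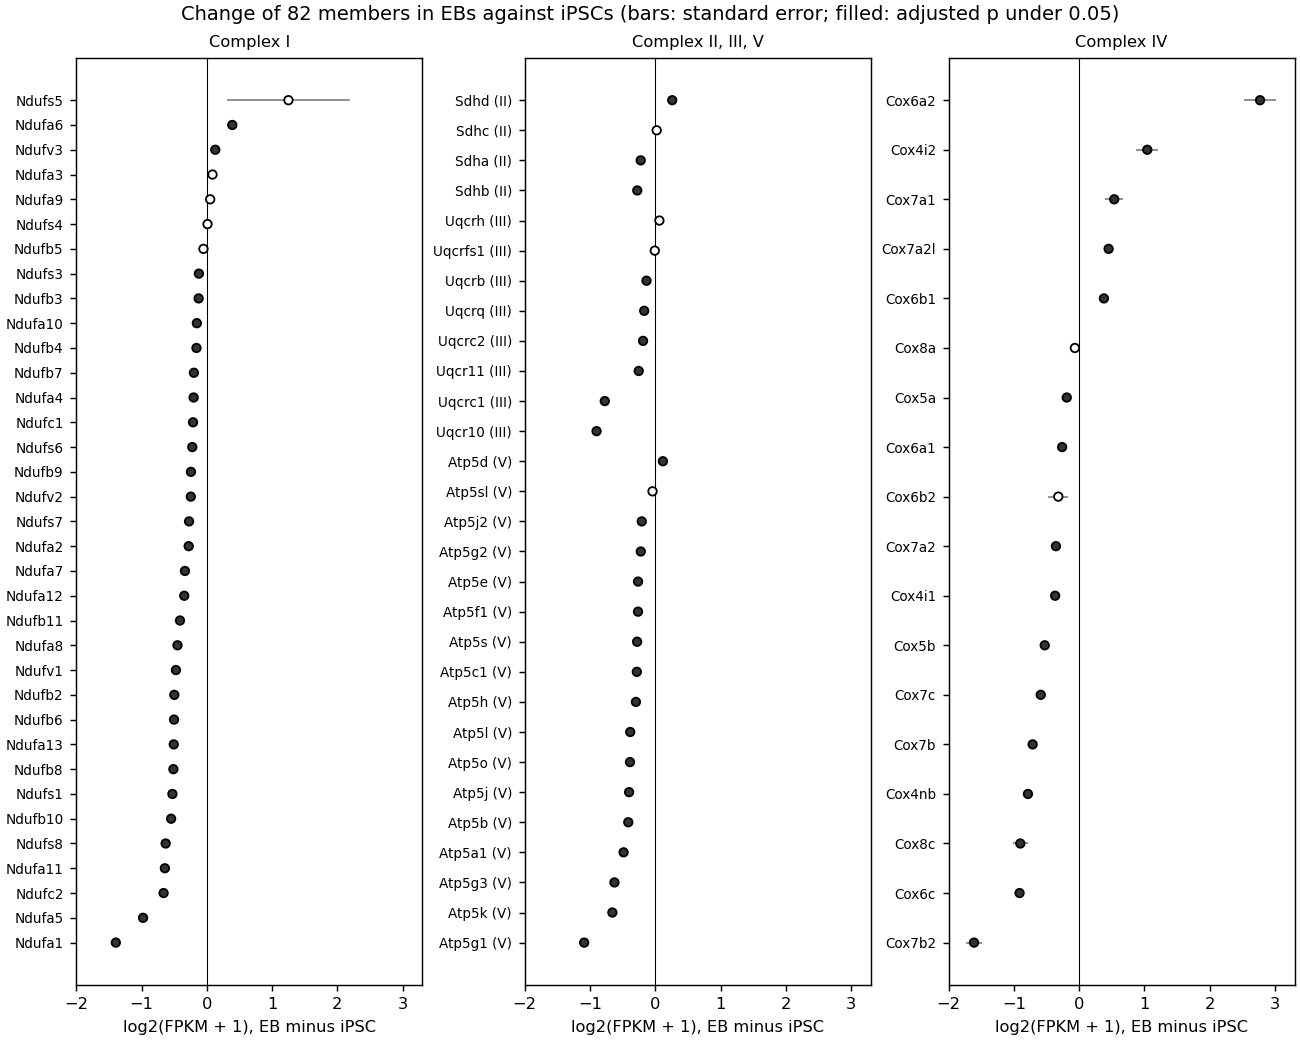
Change in log2(FPKM + 1), EB minus iPSC (horizontal axis), of 82 members, sorted within complexes, with its standard error. Filled points passed the test at an adjusted p under 0.05 in limma. Most points lie left of 0, Cox6a2 (2.77) lies farthest right and Cox7b2 (-1.61) farthest left. Both genes passed the FPKM filter only through the group where they are high, so their values are descriptions.

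Complex I is built from a core that passes electrons from NADH to ubiquinone and a larger set of accessory subunits. Of the core genes, Ndufs8 fell by 0.63, Ndufs1 by 0.53 and Ndufs3 by 0.12. Ndufs1, the large iron-sulphur protein, was at 36.6, 39.0, 41.5 and 41.3 FPKM in the KIX D, KIX V, KI D and KI V EB libraries, against 50.4 to 61.0 FPKM in iPSCs (median 58.1), without overlap. Of the 29 accessory members, 22 fell and 2 rose. Ndufa1, a small accessory subunit that the enzyme needs to assemble, fell most of the members that passed in this complex. It was at 71.5, 71.4, 101.2 and 92.7 FPKM in those EB libraries, against 161.3 to 322.4 FPKM in iPSCs (median 228.8). Its log2 change was -1.39 ± 0.06 (SE; adjusted p = 8.64e-10 in limma). Ndufa5, another accessory subunit, stood at 42.6, 43.5, 45.3 and 41 FPKM in EBs, against 75.6 to 109.1 FPKM in iPSCs (median 85.4), a change of -0.98 ± 0.06 (adjusted p = 1.40e-08 in limma). For both genes all EB libraries were below all iPSC libraries. The rises were those of Ndufa6 (0.39) and Ndufv3 (0.13), which both overlapped with iPSCs, and Ndufv3 turned to -0.06 under median centring. Ndufa4, now placed in complex IV by biochemical work, fell by 0.20.

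Complex II, which is also succinate dehydrogenase of the citrate cycle, changed little and not in 1 direction. The catalytic flavoprotein gene Sdha fell by 0.22, to 81.3 ± 2.87 FPKM in EBs against 95.1 ± 5.81 FPKM in iPSCs (SD, n = 4 and 12), and the iron-sulphur subunit gene Sdhb fell by 0.28. Sdhd, a membrane anchor, was at 162.8, 166.7, 161.7 and 166.2 FPKM in the KIX D, KIX V, KI D and KI V EB libraries, against 109.6 to 152 FPKM in iPSCs (median 141). It rose by 0.26 ± 0.04 (adjusted p = 7.34e-05 in limma), and no iPSC library reached the EB range. The other anchor, Sdhc, averaged 84.1 ± 6.10 FPKM in EBs and 82.7 ± 3.37 FPKM in iPSCs and did not pass (adjusted p = 0.487 in limma). Summed, the 4 genes took 0.0628% to 0.0648% of all FPKM in EBs and 0.0543% to 0.0640% in iPSCs.

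In complex III, 6 of 8 members fell and none rose. Uqcr10, a small membrane subunit, was at 225.2, 200.9, 271.7 and 284.6 FPKM in the EB libraries in the same order, against 399.8 to 608.1 FPKM in iPSCs (median 436), a change of -0.90 ± 0.05 (adjusted p = 1.34e-08 in limma). Uqcrc1, a core protein, was at 119.7, 113.5, 130.1 and 121 FPKM in EBs, against 180.2 to 237.2 FPKM in iPSCs (median 209.3), a change of -0.77 ± 0.03. Both were without overlap. Its partner Uqcrc2 fell by 0.19. The Rieske iron-sulphur protein gene Uqcrfs1 did not pass, at 107 ± 3.46 FPKM in EBs and 108 ± 13.5 FPKM in iPSCs.

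Of the 18 members counted with complex IV, 11 fell and 5 rose. These counts include Cox6a2, Cox7b2 and Cox8c, and the 18 include Cox4nb, which is not a subunit. Cox6a2 and Cox7b2 lay farthest in either direction, but passed the FPKM filter only through the group where they are high. Leaving these genes out, the largest fall of any member was that of Ndufa1 in complex I. Several subunits of complex IV exist in forms used by different tissues, and these did not move together. Cox6a2, the heart and skeletal muscle form of subunit 6a, was at 5.06, 20.6, 2.81 and 5.12 FPKM in the KIX D, KIX V, KI D and KI V EB libraries, against 0 to 0.212 FPKM in iPSCs (median 0.0979). All EB libraries were above all iPSC libraries, and the difference was 2.77 ± 0.25. It passed the FPKM filter only through EBs, where it is high, so this difference is given as a description. Its widely expressed counterpart Cox6a1 fell by 0.26, at 493 ± 67.6 FPKM in EBs and 589 ± 67.9 FPKM in iPSCs. Even so, Cox6a2 made up 0.503% to 4.88% of the summed FPKM of both forms in EBs, and 0 to 0.0352% in iPSCs.

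Cox7a1, the heart and muscle form of subunit 7a, was at 34.2, 37.5, 33.8 and 43.3 FPKM in the EB libraries, against 17.4 to 33.7 FPKM in iPSCs (median 26.9), a rise of 0.54 ± 0.14 (adjusted p = 0.00383 in limma). The lowest EB library and the highest iPSC library, KI D of number 4, were nearly level. Cox7a2, the liver form that most tissues use, fell by 0.36. Cox7a1 thus held 12.7% to 17.1% of their summed FPKM in EBs and 6.15% to 10.5% in iPSCs. Cox4i2, a form of subunit 4 known from lung and from low oxygen, was at 2.75, 5.43, 1.23 and 0.719 FPKM in EBs, against 0.0803 to 1.28 FPKM in iPSCs (median 0.463). It rose by 1.04 ± 0.17 (adjusted p = 0.000131 in limma), although both KI EB libraries lay within the iPSC range. Cox7a2l, known for joining complexes III and IV into supercomplexes, rose by 0.45 ± 0.04, at 229 ± 6.08 FPKM in EBs and 169 ± 24.7 FPKM in iPSCs, without overlap. Cox6b1, a subunit on the intermembrane side, rose by 0.38.

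Of 3 complex IV subunit forms known from testis, Cox7b2 and Cox8c were lower in every EB library than in any iPSC library and Cox6b2 did not pass. Cox7b2 was listed at 0 in KIX D and stood at 0.128, 0.252 and 0.804 FPKM in the KIX V, KI D and KI V EB libraries, against 1.67 to 5.49 FPKM in iPSCs (median 2.39). Cox8c was listed at 0 in KIX D and KI V and was at 0.174 and 0.348 FPKM in KIX V and KI D, against 0.435 to 1.96 FPKM in iPSCs (median 1.15). The differences were -1.61 and -0.90, and the groups did not overlap for either gene. Both passed the FPKM filter only through iPSCs, where they are high, so these differences are descriptions. Cox6b2 was at 32.4, 25.5, 41 and 61.5 FPKM in EBs and at 30.6 to 69.8 FPKM in iPSCs, a change of -0.32 that did not pass (adjusted p = 0.0644 in limma). Of the widely used subunits, Cox6c fell most, by 0.91, at 316 ± 46.7 FPKM in EBs and 594 ± 70.0 FPKM in iPSCs. Cox7b fell by 0.71, and Cox8a did not pass, at 566 ± 67.8 and 591 ± 55.3 FPKM in EBs and iPSCs.

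Muscle markers, like Cox6a2, differed between the EB libraries. The summed level of the 6 cardiac markers was 161.9, 696.6, 98.1 and 107.1 FPKM in KIX D, KIX V, KI D and KI V EBs, and 4.85 to 17.6 FPKM in iPSCs. The KIX V library was highest and KI D lowest for these markers and for Cox6a2, but KIX D and KI V stood in opposite orders. The markers' part in the level of Cox6a2 was not tested.

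Of the 17 members counted with the ATP synthase, which include Atp5s and Atp5sl, 15 fell and 1 rose. In the F1 head, which binds the nucleotides, the alpha, beta, gamma and epsilon subunit genes Atp5a1, Atp5b, Atp5c1 and Atp5e fell, by 0.26 to 0.49. The delta subunit gene Atp5d rose by 0.12. Atp5b was at 786.3, 799.2, 912.2 and 909.4 FPKM in the KIX D, KIX V, KI D and KI V EB libraries, against 981.5 to 1250 FPKM in iPSCs (median 1145), a change of -0.41 ± 0.04 (adjusted p = 5.83e-07 in limma) without overlap. The c subunit, whose ring turns in the membrane, is encoded by 3 genes with the same mature protein. Atp5g1 fell most, by 1.09 ± 0.03 (adjusted p = 8.46e-11 in limma), at 157.6, 150, 191.2 and 205.2 FPKM in EBs, against 341.5 to 426.8 FPKM in iPSCs (median 367.1). Atp5g3 fell by 0.63 and Atp5g2 by 0.22. Atp5g1 accordingly gave 13.6% to 16.7% of the summed FPKM of the 3 genes in EBs and 20.0% to 23.4% in iPSCs.

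**Figure D3:**
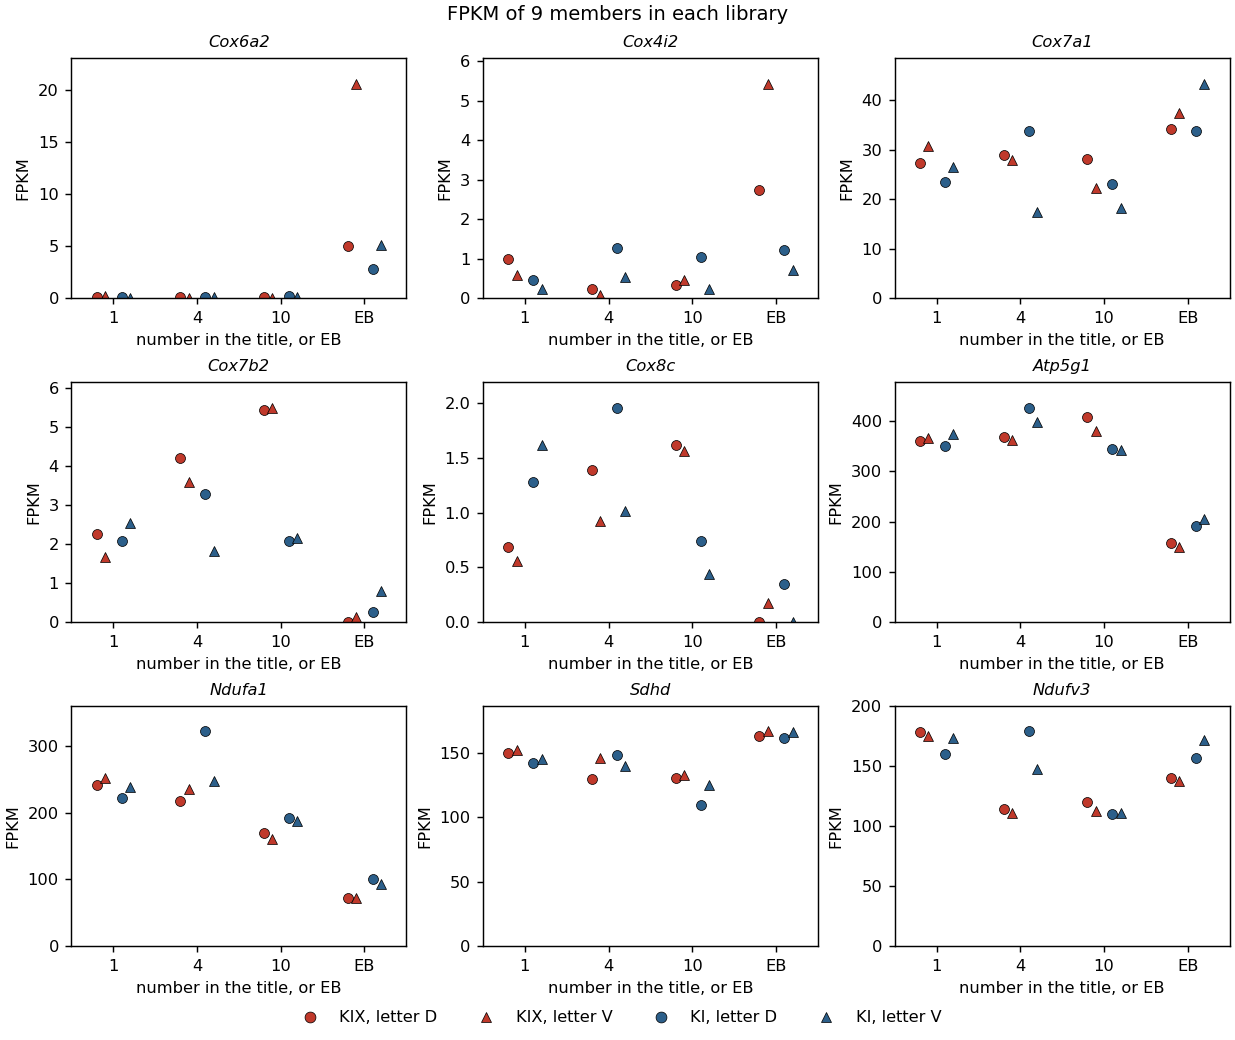
FPKM (vertical axis, starting at 0) of 9 members in every library, by the number in the title or EB (horizontal axis), with KIX in red left of KI in blue, circles for letter D and triangles for letter V. Cox6a2 reaches 20.6 FPKM in the KIX V EB library and stays at or under 0.212 FPKM in iPSCs, while Atp5g1 and Ndufa1 are lower in every EB library than in any iPSC library.

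Most other genes of mitochondrial function on the lists were lower in EBs too. Of 28 assembly factor genes tested, 20 fell and 4 rose, with a median change of -0.31. Of 76 mitochondrial ribosomal protein genes, 65 fell and 8 rose, with a median of -0.51. Of 18 genes of the citrate cycle and pyruvate dehydrogenase, 12 fell and 4 rose. Among 14 regulators of mitochondrial biogenesis, 10 fell and 4 rose. The largest change there was a rise, that of Polg, the mitochondrial DNA polymerase, by 1.98, at 71.8 to 86.2 FPKM in EBs and 17.1 to 20.7 FPKM in iPSCs. Tfam, which packages mitochondrial DNA, fell by 0.50, and Nrf1, a factor that binds many promoters of mitochondrial genes, fell by 0.37. The coactivator gene Ppargc1a, which was not tested for its low level, was at 0.136 to 1.03 FPKM in EBs and 0 to 0.0188 FPKM in iPSCs. Of 20 genes of electron carriers and nucleotide exchange, 11 fell and 5 rose. Cycs, cytochrome c, fell by 0.43, and Slc25a5, the ADP/ATP carrier of dividing cells, by 1.52. Etfdh, which passes electrons from fatty acid oxidation to ubiquinone, rose by 1.32, at 30.9 to 37.0 FPKM in EBs and 11.7 to 14.9 FPKM in iPSCs. Cytosolic ribosomal protein genes, with 39 of 83 lower and 17 higher, had a median of -0.11. Genes linked to low oxygen, not all of them mitochondrial, went the other way, with 6 of 8 higher and 1 lower. The largest rises were those of Bnip3 (3.17), a receptor for the removal of mitochondria, and Egln3 (2.31), an oxygen-sensing hydroxylase. Ndufa4l2, the low-oxygen paralog of Ndufa4, rose by 0.93 against the mean of iPSCs, but the groups overlapped. It was at 9.48 to 12.6 FPKM in EBs, against 12.6 to 25.8 FPKM in iPSCs of number 1, 1.07 to 18.8 FPKM at number 4 and 1.52 to 2.07 FPKM at number 10.

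Within EBs, KIX had lower levels of most members than KI. With 2 libraries each, 28 of 83 members fell and 1 rose, where 15% of all genes tested fell and 12.4% rose (27.3% in either direction). The median change was -0.16, beside -0.03 over all genes. Ndufb4, an accessory subunit of complex I, was at 161.4 and 152.2 FPKM in the KIX D and V libraries, against 225.3 and 220.3 FPKM in KI, a change of -0.50 ± 0.08 (adjusted p = 0.00140 in limma). Uqcrq was at 373.7 and 333.5 FPKM in KIX EBs, against 494.9 and 456.1 FPKM in KI EBs (-0.43). Cox7b, a small subunit of complex IV, was at 120.1 and 121.6 FPKM in KIX, against 154.3 and 165 FPKM in KI (-0.40). Ndufa1 fell by 0.43. Cox6b2 fell by 0.78 ± 0.26 (adjusted p = 0.0458 in limma). Cox4i2 was the member that rose, by 1.33 ± 0.30 (adjusted p = 0.00805 in limma), with the values given above. Cox6a2, at 5.06 and 20.6 FPKM in KIX and 2.81 and 5.12 FPKM in KI, did not pass. By complex, the falls were 10 of 36, 1 of 4, 3 of 8, 7 of 18 and 7 of 17 for I to V.

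The KIX EBs also differed from the KI EBs in cell markers. Cardiac markers were higher in KIX (5 of 6 passed) and so were fibroblast markers (7 of 10), whose summed level was 488.8 and 159.7 FPKM in KIX D and V and 47.0 and 24.1 FPKM in KI. Pluripotency markers were lower (5 of 5), with summed levels of 463.2 and 347.2 FPKM in KIX and 644.1 and 659.2 FPKM in KI. Mitochondrial ribosomal protein genes fell in 23 of 76 cases, and cytosolic ones in 9 of 83. The part of these differences in the lower subunit levels was not tested. The number of members called was 7 without KIX V, 10 without KI D, 5 without KI V and 20 without KIX D, where the lone library left in a group is assumed to vary like the others.

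At number 1, no member passed in KIX against KI. limma called 0 of 83, with 7 at an unadjusted p under 0.05, where 2.2% of all genes were called in either direction, 1.56% higher and 0.641% lower. The point estimates were nonetheless positive for 74 members, with a median of 0.08. At number 4, 8 members fell and none rose, where 8.29% of all genes fell and 11.3% rose (19.6% in either direction), and the median was -0.14. The share of members that fell (9.64%) was thus near that of all genes. Ndufv3, an accessory subunit near the NADH-binding site, was at 113.9 and 110.9 FPKM in the KIX D and V libraries, against 178.7 and 147.6 FPKM in KI, a change of -0.53 ± 0.08 (adjusted p = 0.00178 in limma). Atp5e was at 404.3 and 382 FPKM in KIX, against 592 and 469.9 FPKM in KI (-0.42). Ndufb5 was at 79.5 and 79.0 FPKM in KIX, against 106 and 89.8 FPKM in KI (-0.30). Ndufb10 fell by 0.26 and Cox4nb by 0.40. Each of these genes was highest in the KI D library described above. Without that library 3 members fell and 2 rose, with a median of -0.03, and without KI V 47 fell. Without KIX D 2 fell, and without KIX V 3 fell. Of the low-oxygen genes, 5 of 8 fell in KIX at number 4, with Ndufa4l2 at 1.74 and 1.07 FPKM in KIX and 18.8 and 6.82 FPKM in KI, and Bnip3 at 11.2 and 14.0 FPKM in KIX and 79.9 and 38.0 FPKM in KI. The part of these genes' difference in the result was not tested.

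At number 10, 7 members rose in KIX against KI and none fell, where 9.94% of all genes rose and 14.6% fell (24.6% in either direction). The median was 0.09, beside 0.00 over all genes. Cox7b2 was at 5.42 and 5.49 FPKM in the KIX D and V libraries, against 2.08 and 2.15 FPKM in KI, a rise of 1.05 ± 0.21 (adjusted p = 0.00655 in limma). Cox8c was at 1.62 and 1.56 FPKM in KIX, against 0.740 and 0.435 FPKM in KI (0.71). Uqcrc1 was at 225 and 221 FPKM in KIX, against 197.7 and 185.2 FPKM in KI (0.22). The remaining rises were those of Atp5a1, Atp5g1, Atp5c1 and Ndufs1, by 0.16 to 0.20. The share of members that rose (8.43%) was near that of all genes. With 1 library left out the count was 0 (KIX D), 1 (KIX V), 4 (KI D) or 3 (KI V). Fibroblast markers summed to 1469 and 1574 FPKM in KIX and 2205 and 2566 FPKM in KI at this number, and their part in the result was not tested.

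**Figure D4:**
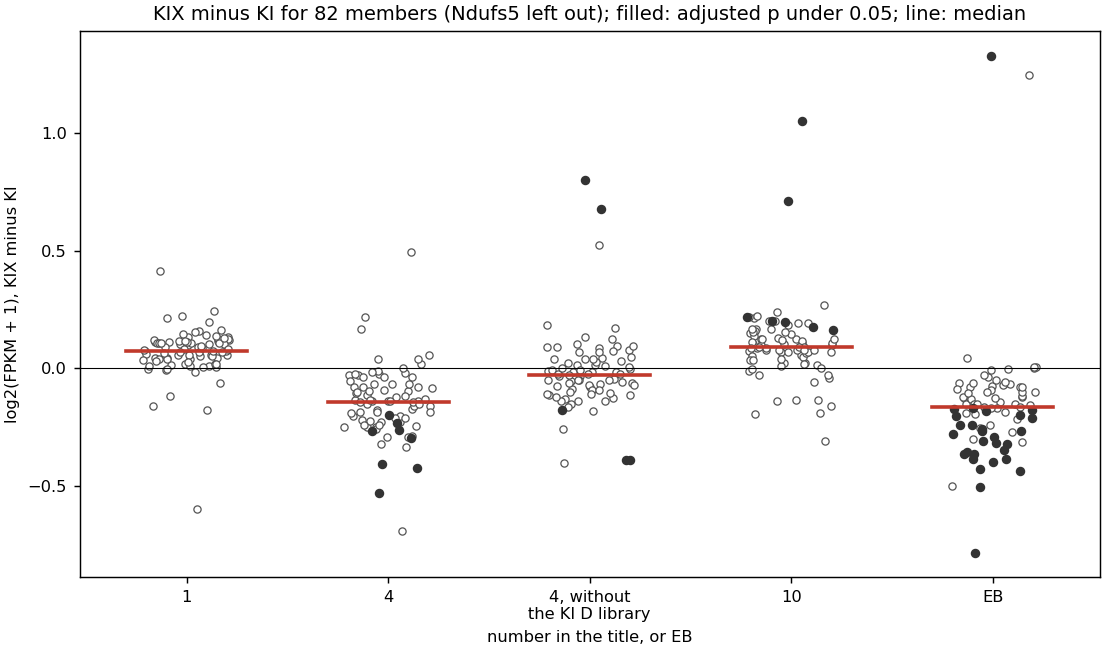
Change in log2(FPKM + 1), KIX minus KI (vertical axis), of 82 members at numbers 1, 4 and 10 and in EBs, with number 4 shown again without its KI D library (horizontal axis). Filled points passed at an adjusted p under 0.05 in limma, and red lines are medians. The cloud lies below 0 at number 4 and in EBs, and at number 4 it moves to near 0 without that library.

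The change of the KIX minus KI difference was tested itself. The share of members that passed from number 1 to number 4, 2.41%, was near the 2.19% of all genes called in the same, negative direction. Of all genes, 2.53% were called in the positive direction and 4.71% in either. The members that passed were 2, Ndufv3 (-0.61) and Ndufb5 (-0.37). This count was 37 without KI V of number 4, and 0 or 1 without any other single library. From number 4 to number 10, 17 members passed, all in the positive direction, where 11.4% of all genes were called in that direction, 17.1% in the other and 28.5% in either. They included Cox8c (0.90), Ndufv3 (0.60) and Cox7c (0.55), and 8 passed without the KI D library of number 4, against 54 without KI V. The count was 6 without KIX D and 12 without KIX V of number 4, and 5 to 10 without any 1 library of number 10. Between iPSCs and EBs, 25 members passed in the negative direction and 1 in the positive, where 18.2% and 14.8% of all genes did (33% in either). Cox4i2 (1.48) was the positive one, and Cox7b2 (-0.96), Ndufb4 (-0.52) and Cox5a (-0.45) were the farthest negative. Cox7b2 passed the FPKM filter only through iPSCs, where it is high, so its value is a description, though it counts here. The last count was 45 without the KI D library of number 4. It was 13 without the KIX V EB library, and 14 and 11 without the KI D and KI V EB libraries.

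Most members were lower at number 10 than at number 4. Of 83, 53 members fell and 1 rose, where 19.1% of all genes fell and 21.7% rose (40.9% in either direction), and the median was -0.18. Ndufa1 was at 170.2, 161.3, 192.2 and 187.3 FPKM in the KIX D, KIX V, KI D and KI V libraries of number 10, against 217.2, 235.7, 322.4 and 247.4 FPKM at number 4, a change of -0.51 ± 0.07 (adjusted p = 0.000315 in limma). Cox7b was at 180.6, 172.9, 182.2 and 181.5 FPKM at number 10, against 224.5, 244.3, 285.7 and 236.3 FPKM at number 4 (-0.46). Cox7a2l was at 143.7, 147.6, 131.9 and 132.6 FPKM at number 10, against 176.1, 177.6, 200.8 and 168 FPKM at number 4 (-0.37). These 3 genes did not overlap between the numbers. Ndufb11 fell by 0.47 and Ndufa6 by 0.40. Cox4nb, the gene that is not a subunit, rose by 0.38. Without the KI D library of number 4, 33 members fell and 2 rose, with a median of -0.12. The count of calls was 33 without KIX V of number 4 and 34 without KIX V of number 10. With KI and KIX taken as the 2 replicates of a letter and number, 10 fell. Of 18 genes of the citrate cycle and pyruvate dehydrogenase, 12 fell and 1 rose. Of 76 mitochondrial ribosomal protein genes 9 fell and 2 rose, and of 83 cytosolic ones 21 fell and 2 rose. Fibroblast markers summed to 1143 to 1325 FPKM at number 4 and 1469 to 2566 FPKM at number 10. Their part in these changes was not tested.

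Against number 1, number 10 had 26 members lower and 4 higher. Of all genes, 27% fell and 25% rose (51.9% in either direction), so the share of members that fell was near that of all genes. Without the 3 genes that are not subunits, 25 were lower and 2 higher of 80. Ndufv3 was at 119.7, 112, 110.1 and 110.3 FPKM in the KIX D, KIX V, KI D and KI V libraries of number 10, against 177.8, 174.9, 159.6 and 173.4 FPKM at number 1, a change of -0.60 ± 0.06 (adjusted p = 1.48e-05 in limma). Cox7b fell by 0.58, Cox7a2l by 0.43, Ndufa1 by 0.42 and Ndufs4, an accessory subunit, by 0.37, all without overlap. The rises were those of Cox7b2 (0.53), Cox4nb (0.37), Atp5sl (0.23) and Uqcrc1 (0.13). At number 10, Cox7b2 was at 5.42 and 5.49 FPKM in KIX and 2.08 and 2.15 FPKM in KI. Its KI values lay within its range at number 1, 1.67 to 2.53 FPKM. The KI values of Uqcrc1 at number 10, 197.7 and 185.2 FPKM, also lay within its number 1 range, 180.2 to 202.3 FPKM. The hypoxia-linked genes fell in 6 of 8 cases, with Ndufa4l2 at -2.74 and Bnip3 at -2.70. With KI and KIX as the 2 replicates, 10 members fell and 1 rose.

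Against number 1, number 4 had 20 members higher and 4 lower, where 16.9% of all genes rose and 21.7% fell (38.6% in either direction), with a median of 0.09. Uqcrc1 was at 237.2, 227.4, 236.3 and 216.3 FPKM in the KIX D, KIX V, KI D and KI V libraries of number 4, against 192.2, 202.3, 180.2 and 180.4 FPKM at number 1, a rise of 0.28 ± 0.04 (adjusted p = 0.000658 in limma) without overlap. Ndufa13 rose by 0.33, Uqcrq by 0.28, Uqcr10 by 0.27 and Ndufb7 by 0.25. Ndufv3 fell by 0.34, and its KI D value of number 4, 178.7 FPKM, was above all values of number 1. Without the KI D library of number 4, 8 rose and 7 fell, with a median of 0.02. The count was 44 without KI V of number 4, and 8 to 13 without any 1 of the KIX libraries of number 4 and the libraries of number 1. With KI and KIX as the 2 replicates, 3 rose, and after median centring 20 rose and 1 fell. Fibroblast markers fell in 5 of 10 cases and rose in 1 at number 4, and their part in these changes was not tested.

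The sequence of the induced microRNA is shown because its targets are read through its seed, bases 2 to 8, in capitals. The mature form lies on the plus strand at chr12:112130927-112130948 (GRCm38, RefSeq).

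mmu-miR-203-3p: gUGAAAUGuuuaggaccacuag

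The DNA letters that pair with this seed, CATTTCA, occurred in the 3′ UTR of 5 of 81 members with a gene model (6.17%) and of 1976 of 12029 tested genes (16.4%). Members have short 3′ UTRs, with a median of 189 bases against 1115 bases over the tested genes. A window around the first match in each of the 5 members follows, transcript strand, with the match in capitals. Ndufb2 has 2 matches, of which 1 is shown.

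Atp5g3: atttccacagtCATTTCAttaaagatgaa

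Atp5j: aaataaacattCATTTCAcagttatcaaa

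Ndufb2: gcaaggtgagaCATTTCAagaaattacag

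Ndufb8: agaaagtaaggCATTTCAagcgatggaac

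Sdhd: gtgagactgaaCATTTCAtgagctcatgt

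None of these 5 genes passed in KIX against KI at number 1 or 4, the numbers at which Mir203 was high in KIX. At number 4 their log2 changes were -0.02 (Atp5g3), -0.02 (Atp5j), -0.16 (Ndufb2), -0.12 (Ndufb8) and -0.07 (Sdhd), and at number 1 they were 0.11, 0.01, 0.00, 0.13 and 0.07 in the same order. A match is a description of the letters and not a shown target.

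Promoters of members were searched for letters bound by factors known to drive respiratory genes, in the 250 bases before the start, on both strands (RefSeq, GRCm38.p6). The table held 70 promoters of 65 members. The NRF1 letters (GCGCA, any base, GCGC) were in 14 of the 70 (20%), in 7.41% of the promoters of tested genes and in 3.74% of all promoters in the table. The ETS letters CCGGAAG were in 12 of 70 (17.1%) against 12.6% and 6.91%, and the ERR letters TCAAGGTCA in 1 of 70 (1.43%) against 0.297% and 0.387%. The NRF1 letters read on the other strand can overlap themselves. To show how the letters lie beside the starts, 1 window is given for each of 6 genes, on the gene's strand with the match in capitals. Of the 250-base stretches searched in these genes, only those of Ndufa11 and Sdhd lay upstream of all models of the gene. Those of Ndufa5, Cox6a1, Atp5k and Atp5g2 overlapped a model that starts farther upstream.

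Ndufa11: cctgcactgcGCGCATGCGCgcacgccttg

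Ndufa5: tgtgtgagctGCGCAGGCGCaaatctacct

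Sdhd: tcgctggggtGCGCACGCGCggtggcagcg

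Cox6a1: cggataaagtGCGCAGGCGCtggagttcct

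Atp5k: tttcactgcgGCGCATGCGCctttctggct

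Atp5g2: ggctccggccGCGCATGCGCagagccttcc

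They lie at chr17:56717692-56717721 (plus strand), chr6:24527697-24527726 (minus), chr9:50603909-50603938 (minus), chr5:115349056-115349085 (minus), chr5:108434430-108434459 (minus) and chr15:102671070-102671099 (minus), in the order shown. The 13 genes with the letters did not all move alike in EBs. Ndufa5 (-0.98), Atp5k (-0.66) and Ndufa11 (-0.64) fell, Cox6a1 (-0.26) and Atp5g2 (-0.22) fell less, and Sdhd (0.26) rose.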

How the data were processed

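Strand-marked TruSeq polyA libraries (dUTP) were sequenced on a HiSeq2500, per the labels' protocols. The submitters' processing notes name Cufflinks 2.2.1, SAMtools 0.1.19, Bowtie 1.0.0, TopHat2 2.0.10, FastQC and the build GRCm38 (mm10). Settings and annotation are not given in the sources used here. FPKM values of 23284 genes in 16 libraries are what the authors deposited. FPKM depends on the summed signal of a library, so abundant transcripts shift the rest, and a 0 can be a failed estimate. Whole reads were not recovered: of low values above 1.5 steps, 39.1% lay within 0.1 of a whole number of steps, where 20% would by even spread. Depth in reads is therefore unknown, and no counting interval is given.

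Each gene was fitted in limma 3.58.1 (R 4.3.3) on the log2(FPKM + 1) scale (8 prefix by number or EB means, empirical Bayes with trend, two-sided, Benjamini-Hochberg over 13895 genes at 1 FPKM or more in at least 2 libraries, threshold 0.05, 8 residual degrees of freedom). The plus 1 understates changes of low genes. Where numbers, or EBs and iPSCs, are compared, KI and KIX get equal weight, and D and V count as independent, which can make p-values too small. The fit was tested on simulated data. The letter did not pair libraries: D minus V differences of the groups correlated across genes with r from -0.187 to 0.206, over 0.1 in 3 of 28 pairs. Levels are FPKM, with mean ± SD, and changes are differences of log2(FPKM + 1), with their SE.

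Members and lists were chosen with earlier results of these data known. Named members are, per comparison, up to 5 rises and 5 falls that passed without overlap (overlap was not considered for changes of a difference), the tissue forms and paralogs of complex IV and subunit c, complex II, and the highest and lowest of each complex. Of other genes, up to 3 per list and Ndufa4l2, Mir203, Cycs, Ppargc1a, Ppargc1b, Nrf1 and Tfam could be named. Members named beyond that, the complex I accessory and F1 groups, and the shares between forms were chosen after their values were seen. Many subunit genes have processed pseudogenes, and how reads shared with them were assigned is not given in the sources used here. The result of 1 member is not reported here, though it counts in the totals.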

Additional observations from a re-analysis of the deposited data

Results flagged for a closer look

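Within the 4 libraries (KIX and KI together) of each number and of EBs, 17 of 212 sets of values of the named members and complex means held a library far from the other 3 (gap to the nearest over the range above Dixon's critical value), where chance gives about 1 in 20. In KI D of number 4, these were Ndufa7 at 583 FPKM (nearest 434), Ndufb11 at 220 FPKM (174), Ndufb7 at 229 FPKM (191), Sdhb at 115 FPKM (95.8), Uqcr10 at 608 FPKM (504), Uqcrq at 645 FPKM (501), and the mean log2 level of complex V at 8.32 (8.09). In other libraries of number 4, Ndufs5 was at 18.1 FPKM in KI V (0.953), Uqcrc2 at 103 FPKM in KIX V (97.2) and Cox6a2 at 0 FPKM in KIX V (0.0937). In KI D of number 1, Ndufa7 was at 375 FPKM (430), Ndufb10 at 122 FPKM (129), Sdha at 98 FPKM (102), and the mean log2 level of complex IV at 6.31 (6.38). Cox7b was at 173 FPKM in KIX V of number 10 (181). In EBs, Cox6a2 was at 20.6 FPKM in KIX V (5.12) and Ndufs4 at 33.1 FPKM in KI V (30.6).

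Among named members, in 30 cases the KIX minus KI difference itself changed between stages in limma (adjusted p under 0.05), given as values of log2(FPKM + 1). From number 1 to number 4 it changed by -0.37 for Ndufb5 and by -0.61 for Ndufv3. From number 4 to number 10, it changed by 0.24 for Atp5a1, 0.37 for Atp5g1, 0.46 for Atp5j2, 0.45 for Cox4nb, 0.55 for Cox7c, 0.9 for Cox8c, 0.29 for Ndufb10, 0.42 for Ndufb5, 0.49 for Ndufc2, 0.6 for Ndufv3 and 0.23 for Sdha. From iPSCs to EBs, it changed by 1.48 for Cox4i2. Among complex V members that change was -0.26 for Atp5a1, -0.25 for Atp5b, -0.37 for Atp5g1 and -0.22 for Atp5g3. Among complex IV members it was -0.45 for Cox5a, -0.31 for Cox6b1, -0.42 for Cox6c, -0.38 for Cox7b, -0.96 for Cox7b2 and -0.28 for Cox8a. The value of Cox7b2 is a description, since that gene passed the FPKM filter only through iPSCs. In complexes I to III it was -0.52 for Ndufb4, -0.23 for Sdhc, -0.36 for Uqcr10, -0.23 for Uqcrc1, -0.24 for Uqcrc2 and -0.41 for Uqcrq. The values that involve number 4 include the KI D library that stood apart.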

How the results depend on the processing

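Counts are members called, and every count not given here stayed within 1.5 times the reported one. Median centring gave 17 for KIX against KI at number 4, 12 at number 10 and 19 in EBs. For the changes of that difference, it gave 5 from number 1 to 4 and 46 from number 4 to 10. Quantile normalization gave 17 for KIX against KI in EBs, 39 for number 4 against 1, and 1, 7 and 17 for the changes from number 1 to 4, from 4 to 10 and from iPSCs to EBs. A pseudocount of 0.1 and no filter each gave 1 for the change from number 1 to 4. With KI and KIX as replicates, the counts were 3 for number 4 against 1, 10 for number 10 against 4 and 11 for number 10 against 1. With 1 library left out, counts ran from 2 to 47 for KIX against KI at number 4, from 0 to 4 at number 10, from 5 to 20 in EBs and were 0 at number 1. They ran from 8 to 44 for number 4 against 1, from 33 to 69 for number 10 against 4, from 21 to 28 for number 10 against 1 and from 67 to 75 for EBs against iPSCs. For the changes of the difference, they ran from 0 to 37, from 5 to 54 and from 11 to 45. The cause of these shifts was not tested. The shares of all genes given above are those of the fit to all libraries. They do not apply to counts from other settings or with a library left out. With the letter as a replicate block, the counts for KIX against KI were 0, 9 and 8 at numbers 1, 4 and 10 and 27 in EBs, with 71 for EBs against iPSCs, 23, 54 and 31 for number 4 against 1, 10 against 4 and 10 against 1, and 3, 19 and 29 for the changes of the difference. Of named members, Ndufb4 turned to 0.0446 in EBs against iPSCs under quantile normalization and Ndufv3 to -0.0618 under median centring, neither passing. Other settings left 1017 of the named results on the same side of the threshold and took 121 below it, and leaving out 1 library left 1341 and took 287 below it. Depth in reads is unknown, so low members such as Cox8c, Cox7b2 and Cox4i2 carry a counting error that cannot be given.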
